A study of Mus musculus with 24 samples.

Results

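The untreated macrophages of a study on the receptor GPR35 and the lipid mediator lysophosphatidic acid (LPA) were compared by genotype. They were the 4 control libraries of wild-type (WT) cells and the 4 control libraries of Gpr35 knockout (KO) cells, 8 of the 24 libraries of the series, and were chosen by their labels. Both genotypes were C57BL/6 background and male, and were labelled as bone marrow-derived macrophages. Bone marrow had been kept in adherent culture with the growth factor M-CSF for 7 days, after which these cells received no agent during the 4 h in which parallel cultures were exposed to LPA or lipopolysaccharide. RNA was read by stranded poly(A) sequencing. The labels say neither how the Gpr35 allele was disrupted nor whether the replicates came from separate mice or cultures, so the tests measure the spread between libraries, which may be technical.

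GPR35 is a G protein-coupled receptor of gut and immune cells for which kynurenic acid and LPA, among other molecules, have been proposed as ligands. M-CSF drives bone marrow precursors to divide and then to mature into macrophages, cells specialised in engulfing particles and digesting them in lysosomes. Macrophages also maintain a low tonic output of type I interferon, which keeps antiviral genes partly switched on. The comparison addressed here asks what differs between the genotypes before any ligand is added, and how large a difference these libraries could have missed.

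The libraries were unequal in depth. Each WT library held 35496347 to 46697165 counts and came from 2 sequencing lanes, and each KO library held 16967776 to 21461866 counts and came from 1 lane, so genotype, depth and lane cannot be told apart. Of the 11590 genes, 6 to 11 had no count in a WT library and 13 to 20 in a KO library. After all libraries were thinned to the same total these numbers were 15 to 21 and 16 to 23. KO replicate 2 stood furthest from the others: the median absolute log2 difference between 2 KO libraries was 0.079 to 0.137 with it and 0.079 to 0.086 without it, against 0.061 to 0.102 between 2 WT libraries and 0.062 to 0.124 between a WT and a KO library.

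The most abundant transcripts were those of lysozyme, lysosomal proteins and ferritin. Abundance is given in TPM, here the count of a gene divided by its listed length and scaled so that the listed genes sum to 1000000 in each library. The lysozyme gene Lyz2 was the most abundant, with 57287, 60868, 64947 and 64299 TPM in WT replicates 1 to 4 and 64273, 56895, 61716 and 61345 TPM in KO replicates 1 to 4. It alone made up 5.69% to 6.49% of the abundance in a library, and its WT and KO values overlapped. The log2 difference of Lyz2, KO minus WT, was -0.05 with a 95% interval of -0.19 to 0.10.

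Behind Lyz2 came Psap, which encodes the precursor of the saposins that help degrade sphingolipids, with 14204 ± 164 TPM in WT and 13781 ± 473 TPM in KO (SD, n = 4 each). The ferritin subunits Fth1 and Ftl1, which store iron, followed with 14517 ± 1282 and 12156 ± 576 TPM in WT and 13444 ± 1518 and 12112 ± 541 TPM in KO. Next were the actin-sequestering Tmsb4x (9516 ± 254 TPM in WT, 9603 ± 259 in KO), the lysosomal protease gene Ctsd (9287 ± 636 and 9227 ± 1134) and B2m, the light chain of MHC class I (8459 ± 708 and 8755 ± 909). Apoe, the lipid-carrier apolipoprotein, had 8282, 8849, 9037 and 10108 TPM in the WT replicates and 9924, 5529, 8062 and 8842 TPM in the KO replicates. KO replicate 2 was the low value, and the other 3 KO libraries lay among or beside the WT values. The list of the 20 most abundant genes went on with Ctsb, the complement gene C1qb, Ctss, H2-L, Eef1a1, Itm2b, Lgals3, Actb, H2-D1, the signalling adaptor Tyrobp, Selenop and Mpeg1. H2-L and H2-D1 are near-identical class I genes, so the split of reads between them is uncertain.

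**Figure D1:**
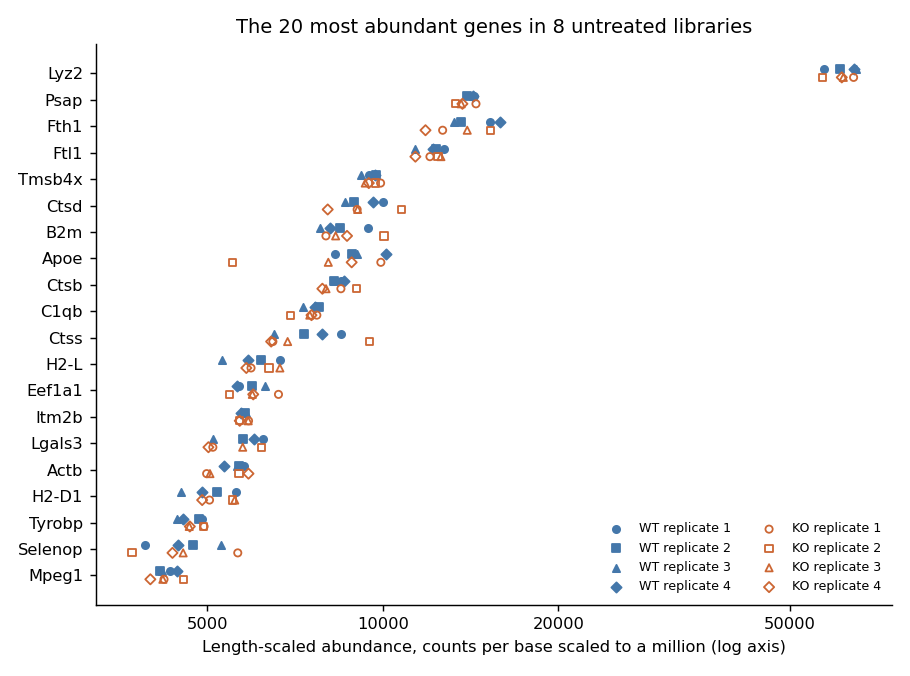
Length-scaled abundance (log axis, TPM) of the 20 most abundant genes, one symbol per library, WT filled and KO open. Lyz2 stands apart at 56895 to 64947 TPM, and the WT and KO ranges overlap for each of the 20 genes.

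Between 98 and 106 genes reached 1000 TPM in a library, 1702 to 1747 reached 100 TPM and 8072 to 8245 reached 10 TPM. The 100 most abundant genes held 35.2% ± 0.409 of the abundance in WT and 34.9% ± 0.424 in KO (SD, n = 4 each). This difference of -0.306 percentage points was not larger than the spread (exact permutation test over 70 arrangements, two-sided, p = 0.371, where the smallest p possible is 0.0286).

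Cell identity was checked with marker lists. All 20 macrophage identity genes were measured and together held 9.46% to 10.3% of the abundance. Among them Adgre1, which encodes F4/80, had a mean of 2411 TPM, the lysosomal Cd68 had 3092 TPM and the tissue-resident marker Cd163 had 1.13 TPM. None of the 20 passed the test between genotypes, against 1 of 11590 over all genes. A 95% interval inside 1.5-fold was found for 17 of the 20, against 87.9% of all genes. The 3 with wider intervals were Marco, Cx3cr1 and Cd163. The lineage transcription factor Spi1, which encodes PU.1, had 598, 595, 549 and 549 TPM in WT and 507, 523, 591 and 560 TPM in KO, and each of the 22 lineage factors listed lay inside 1.5-fold.

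Markers of other cells were present to different extents. The filtered table held 2 of 10 dendritic cell markers (Bst2, which is also interferon-stimulated, and Kmo), 2 of 12 lymphoid markers (Cd4 and Cd79b), 1 of 8 mast cell markers (Hdc), 3 of 10 erythroid and megakaryocyte markers and 6 of 12 stromal markers. Of these erythroid and megakaryocyte markers, the chemokine gene Pf4 had a mean of 399 TPM. Of 10 osteoclast markers 8 were listed, led by Atp6v0d2, a proton pump subunit, at 178 TPM, and all 8 monocyte markers were listed, led by Chil3, a chitinase-like protein gene, at 108 TPM. Of neutrophil and granulocyte precursor markers 14 of 16 were listed, and S100a9, a subunit of calprotectin, had 650, 836, 543 and 455 TPM in WT and 821, 464, 635 and 911 TPM in KO. The 14 together held 0.124% to 0.214% of the abundance in WT libraries and 0.122% to 0.242% in KO libraries, so the groups overlapped. None of the 14 was called, against 1 of 11590 over all genes, and 2 lay inside 1.5-fold, against 87.9% of all genes. All 14 had a higher fitted mean in KO, against 5939 of the 11590 genes. Their median log2 difference of 0.20 was 0.05 without KO replicate 4 and 0.37 without WT replicate 2.

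Gpr35 was the one gene that differed between the genotypes in the edgeR test with Benjamini-Hochberg adjustment, 1 of 11590 genes or 0.00863%. It lies at chr1:92948052-92986391 (GRCm38). It had 107, 133, 112 and 111 counts in WT replicates 1 to 4 and 4, 1, 2 and 5 counts in KO replicates 1 to 4, and the groups did not overlap. In TPM this was 1.35, 1.49, 1.67 and 1.64 in WT and 0.108, 0.0312, 0.0580 and 0.123 in KO. Gpr35 was lower in KO by a log2 difference of -4.20 ± 0.49 (SE; adjusted p = 7.1e-06), an 18.3-fold difference with a 95% interval of 8.997-fold to 37.4-fold. Gene-level counts do not show where in Gpr35 the remaining reads lie.

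Gpr35 was scarce in WT cells as well. At a WT mean of 1.54 ± 0.146 TPM it ranked 10809 of the 11590 genes, which had a median abundance of 22.9 TPM. Within its receptor class levels ranged widely. The UDP receptor gene P2ry6 had a mean of 359 TPM, the platelet-activating factor receptor gene Ptafr 301 TPM and the proton-sensing Gpr65 295 TPM, whereas the WT means of Gpr55, Adora2a and Gpr171 were 1.098, 0.82 and 0.65 TPM, below that of Gpr35. Of the 29 measured receptors of this class, Gpr35 passed the test, and 27 had a 95% interval inside 2-fold, against 96.8% of all genes. Gpr55, a receptor for lysophosphatidylinositol, had 1.00, 1.35, 1.08 and 0.965 TPM in WT and 1.098, 1.48, 1.28 and 2.00 TPM in KO, a log2 difference of 0.39 with an interval of -0.05 to 0.82.

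Of 21 genes that sense, make or degrade LPA, 16 were in the table and none was called, against 1 of 11590 over all genes. Inside 2-fold lay 15 of the 16, against 96.8% of all genes, the exception being Pla1a with 0 to 4 counts per library. Among the LPA receptors, Lpar6 was the most abundant, with 128, 135, 155 and 141 TPM in WT and 166, 116, 126 and 148 TPM in KO. Lpar5 followed with a mean of 46.5 TPM, and Lpar1 and Lpar2 had 3.24 and 1.27 TPM. The interval of the genotype difference was -0.36 to 0.29 for Lpar6 and -0.23 to 0.41 for Lpar5 on the log2 scale. Lpar1 was less tightly bounded, with -0.25 to 0.60.

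Of 28 measured genes for G proteins, arrestins, receptor kinases and their regulators, none was called, against 1 of 11590 over all genes. Inside 1.5-fold lay 27 of the 28, against 87.9% of all genes. Gnai2, the inhibitory alpha subunit, was the most abundant, at 963, 959, 984 and 948 TPM in WT and 972, 964, 979 and 975 TPM in KO. Gna13, another alpha subunit, had a log2 interval of -0.15 to 0.06. The exception was Gna15, an alpha subunit of the Gq class restricted to blood cells, with 20.8, 18.8, 16.1 and 19.8 TPM in WT and 15.1, 14.5, 14.2 and 14.7 TPM in KO. Its KO values all lay below its WT values, with a log2 difference of -0.40 ± 0.14 (edgeR, unadjusted p = 0.00913), which did not pass after adjustment. Such a separation was seen in 1 of the 28 genes, against 1.33% of all genes. An unadjusted edgeR p below 0.05 was likewise seen in 1 of the 28, against 2.71% of all genes.

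The second question was how large a difference could remain unseen. The 95% interval of the log2 difference lay inside 2-fold for 11222 genes (96.8%) and inside 1.5-fold for 10189 genes (87.9%). A test of equivalence on the edgeR fit, with Benjamini-Hochberg adjustment, placed 11324 genes (97.7%) within 2-fold and 10503 (90.6%) within 1.5-fold. With the intervals widened to hold for all 11590 genes at once, 8994 remained inside 2-fold. The median interval reached 0.18 to either side on the log2 scale, which is 1.13-fold, and the median absolute difference was 0.05.

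The bound depended on abundance. Among the 479 genes under 1 TPM the median half-width was 0.63 on the log2 scale and 63.7% of genes lay inside 2-fold. Between 1 and 3 TPM these values were 0.43 and 90.7%, and between 10 and 30 TPM they were 0.17 and 99.3%. All 99 genes above 1000 TPM lay inside 1.5-fold. Of the 1727 genes at 100 TPM or more, 1726 lay inside 2-fold, and the exception was the acute-phase gene Saa3, with 66.6, 95.04, 136 and 88.7 TPM in WT and 123, 67.5, 101 and 189 TPM in KO. Its groups overlapped and its interval was -0.44 to 1.04.

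**Figure D2:**
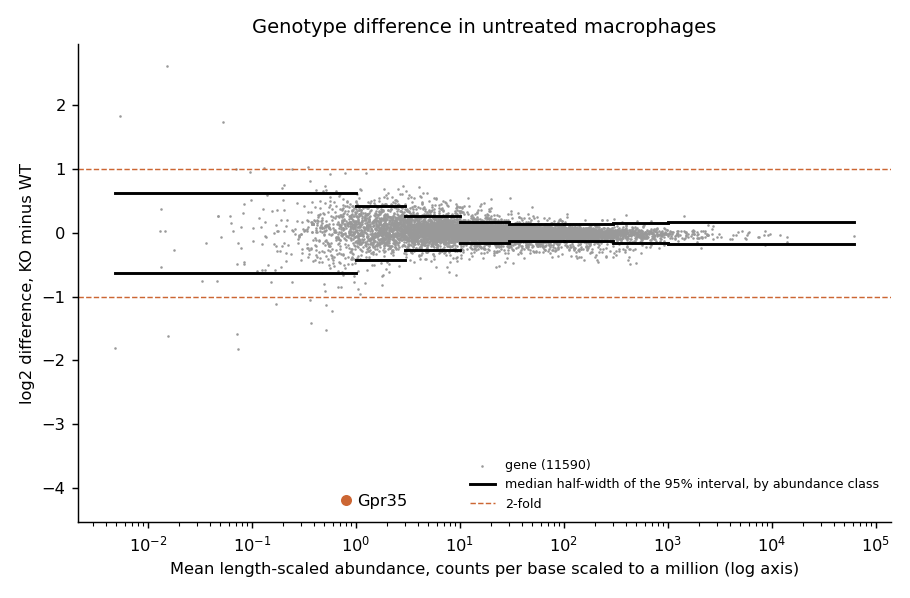
Log2 difference, KO minus WT, against mean abundance (log axis) for 11590 genes. Black steps mark the median half-width of the 95% interval in each abundance class, from 0.63 under 1 TPM to 0.14 between 30 and 300 TPM, and Gpr35 lies at -4.20.

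Fitted differences beyond 2-fold were confined in this fit to 18 genes, and all of them except Gpr35 had a mean of at most 1.00 CPM, which is the count per 1000000 TMM-scaled counts. The collagen genes Col1a1 and Col1a2 and the matrix genes Bgn and Tnc were among the 18, each with a WT mean of at most 1.499 CPM. They are products of stromal cells, and 6 of 12 stromal markers were listed, with a sum of 0.00116% to 0.00163% of the abundance in WT and 0.000793% to 0.00155% in KO. Their part in these differences was not tested.

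Without adjustment, 314 genes (2.71%) had an edgeR p below 0.05. That number was 187 without KO replicate 1, 206 without WT replicate 4, 508 without KO replicate 4 and between 228 and 463 without any other library. The smallest p after Gpr35 belonged to Trim34b, an interferon-inducible gene of the TRIM family with near-identical relatives, at 24.9, 22.5, 22.6 and 25.9 TPM in WT and 18.2, 19.4, 16.8 and 22.5 TPM in KO (unadjusted p = 0.000229, adjusted p = 1 by edgeR with Benjamini-Hochberg). Other low values in KO were those of Itgad, an integrin alpha chain (1.74, 2.87, 2.10 and 2.30 TPM in WT; 1.41, 1.17, 1.02 and 1.56 in KO), and Stard3, a cholesterol-transfer protein of late endosomes (139, 134, 132 and 138 TPM in WT; 104, 123, 114 and 128 in KO). The smallest p with a higher mean in KO was that of Spint2, a serine protease inhibitor, at 3.90, 3.66, 3.54 and 3.87 TPM in WT and 5.84, 4.99, 6.70 and 5.91 in KO, with no overlap and a log2 difference of 0.62 ± 0.16 (unadjusted p = 0.000844). Ada, which encodes adenosine deaminase, had 5.78, 5.72, 5.79 and 5.35 in WT and 6.86, 7.15, 7.12 and 7.01 in KO. None of these passed after adjustment. In 271 genes (2.34%) the 4 KO values did not overlap the 4 WT values, with KO above in 117 (1.01%) and below in 154 (1.33%). With labels assigned at random, no overlap of 4 against 4 libraries has a probability of 0.0286 per gene, and an unadjusted p below 0.05 one of 0.05. Neither the 2.34% nor the 2.71% exceeded these rates.

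Interferon-stimulated genes were low in 2 of the 4 KO libraries. Their promoters often carry the interferon-stimulated response element, whose core is a pair of GAAA blocks. The motif GAAA, any 2 bases, GAAA, searched on both strands with overlapping matches allowed, was present in 13 of 24 such genes with a RefSeq promoter (54.2%) and in 315 of 9210 measured genes with one (3.42%). Promoters are 300 bases long in GRCm38.p6, from 250 bases before the transcription start to 50 after it. The most abundant 2 members with a match are shown in lower case, 5′ to 3′ on the gene's strand, with the matches in capitals. The matches in Bst2 begin 130 and 124 bases before the start and overlap, and those in Ifit3 begin 156 and 122 bases before it.
Bst2, chr8:71537423-71537722, minus strand: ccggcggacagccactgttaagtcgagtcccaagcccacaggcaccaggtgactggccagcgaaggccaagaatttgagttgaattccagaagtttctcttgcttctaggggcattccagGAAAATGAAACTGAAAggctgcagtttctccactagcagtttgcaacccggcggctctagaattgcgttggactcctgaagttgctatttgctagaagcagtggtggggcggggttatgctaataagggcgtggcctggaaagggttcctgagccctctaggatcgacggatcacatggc
Ifit3, chr19:34583279-34583578, plus strand: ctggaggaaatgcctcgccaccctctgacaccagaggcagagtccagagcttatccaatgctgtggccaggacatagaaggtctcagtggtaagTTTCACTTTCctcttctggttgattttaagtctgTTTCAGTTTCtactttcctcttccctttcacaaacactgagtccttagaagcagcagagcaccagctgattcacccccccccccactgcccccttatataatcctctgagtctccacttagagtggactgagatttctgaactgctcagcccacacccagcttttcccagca

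Of the 33 measured interferon-stimulated genes none was called, against 1 of 11590 over all genes. All 33 had a lower fitted mean in KO, with a median log2 difference of -0.28 against 0.00 over all genes, and 16 of 33 had an unadjusted p below 0.05 against 2.71% of all genes. Each of the 33 intervals lay inside 2-fold and 17 lay inside 1.5-fold, against 96.8% and 87.9% of all genes. The p-values and intervals use a spread per gene that all 6 groups share. Untreated KO libraries varied more: the mean log2 CPM of the list, each gene centred, had an SD of 0.390 in KO and 0.117 in WT. For these genes the p-values may thus be too small and the intervals too narrow. The median log2 difference was -0.26 to -0.31 under the other normalizations, tests and filters tried. It was -0.15 without KO replicate 1, -0.19 without KO replicate 3 and -0.41 without KO replicate 4. The summed abundance of the 33 genes was 0.884%, 0.780%, 0.742% and 0.737% in WT replicates 1 to 4 and 0.481%, 0.757%, 0.538% and 0.820% in KO replicates 1 to 4. KO replicates 1 and 3 were thus low, and KO replicates 2 and 4 lay within the WT range.

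The split recurred in the single genes. KO replicates 1 and 3 were the lowest 2 of the 8 libraries in 33 of 33 genes (100%), against 762 of 8162 genes at 10 TPM or more (9.34%). These libraries were singled out after their values were seen, so the counts are a description. Bst2, which encodes the virus-tethering protein tetherin, had 1037, 837, 781 and 843 TPM in WT and 634, 796, 663 and 942 TPM in KO. Ifit3, an antiviral protein gene, had 692, 550, 494 and 536 TPM in WT and 272, 568, 307 and 519 TPM in KO. Ifit2, of the same family, had 571, 513, 478 and 471 TPM in WT and 237, 460, 284 and 490 TPM in KO, and its log2 difference of -0.49 ± 0.19 (edgeR, unadjusted p = 0.0197) was the largest in size among genes at 100 TPM or more. Mx2, a dynamin-like restriction factor, had 37.3, 37.7, 38.1 and 37.1 TPM in WT and 19.98, 32.6, 20.6 and 37.0 TPM in KO.

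Relative to the WT mean, the median interferon-stimulated gene stood at 60.3% in KO replicate 1, 96.2% in replicate 2, 66.5% in replicate 3 and 102% in replicate 4. All 33 genes lay below the lowest WT library in KO replicate 1 and in KO replicate 3, 10 did so in replicate 2 and 2 in replicate 4. One gene of the 33, or 3.03%, was below the WT range in all 4 KO libraries, against 1.33% of all genes. Transcripts of the ligand gene Ifnb1 were near the limit of detection, with 5, 14, 7 and 3 counts in WT and 0, 1, 1 and 3 in KO. These counts are not scaled for depth, which was greater in WT. The scaled means were 0.156 CPM in WT and 0.0558 CPM in KO, and the log2 interval was -3.09 to 0.26. What sets KO replicates 1 and 3 apart was not tested.

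**Figure D3:**
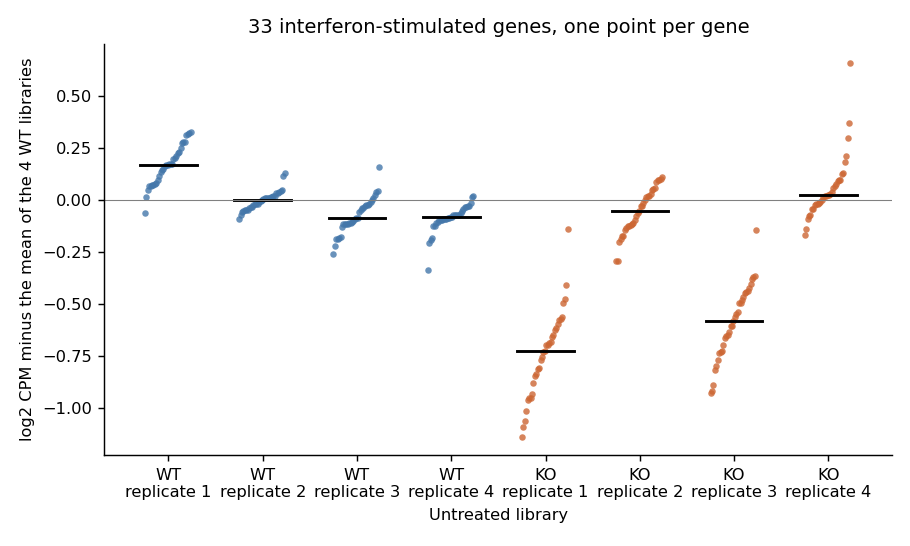
Log2 CPM of 33 interferon-stimulated genes relative to the mean of the 4 WT libraries, one point per gene, with a bar at the median of each library. KO replicates 1 and 3 lie below the WT libraries and KO replicates 2 and 4 among them.

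The genes that varied most among the 8 libraries encode proteins of mitosis, and the variation was within each genotype. By the standard deviation of log2 CPM around the genotype means, among genes at 10 TPM or more, the first 8 were Pimreg, Ube2c, Ccna2, Ccnb2, Nusap1, Prc1, Kif20a and Top2a. Their standard deviations were 1.19 to 1.49, against a median of 0.084 for genes at that abundance. Genes of this kind are activated late in the cell cycle through promoters that often hold CCAAT boxes and a cell-cycle homology element, TTTGAA. On either strand, TTTGAA was present in 9 of 25 cell cycle genes with a promoter (36.0%) and in 1112 of 9210 measured genes (12.1%). CCAAT was present in 18 of 25 (72.0%) and in 3648 of 9210 (39.6%). The promoters of Top2a and Ube2c, the most abundant of the 8 genes with a TTTGAA match, are given with that match in capitals. The matches begin 179 and 23 bases before the start of Top2a and 29 bases before the start of Ube2c.
Top2a, chr11:99024140-99024439, minus strand: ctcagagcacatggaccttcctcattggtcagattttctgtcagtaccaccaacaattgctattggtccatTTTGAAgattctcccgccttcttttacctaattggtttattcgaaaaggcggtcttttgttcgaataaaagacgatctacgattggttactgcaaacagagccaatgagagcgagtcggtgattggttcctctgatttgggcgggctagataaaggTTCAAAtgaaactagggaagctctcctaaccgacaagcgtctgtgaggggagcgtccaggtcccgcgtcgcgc
Ube2c, chr2:164769679-164769978, plus strand: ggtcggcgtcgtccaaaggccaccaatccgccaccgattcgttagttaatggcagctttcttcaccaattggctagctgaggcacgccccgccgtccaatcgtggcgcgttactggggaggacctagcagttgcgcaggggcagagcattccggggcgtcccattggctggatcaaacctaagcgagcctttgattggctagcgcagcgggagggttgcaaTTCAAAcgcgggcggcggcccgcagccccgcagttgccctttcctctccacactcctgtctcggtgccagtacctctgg

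Ube2c, the ubiquitin-conjugating enzyme of the anaphase-promoting complex, had 7.64, 20.7, 50.7 and 20.4 TPM in WT replicates 1 to 4 and 62.2, 4.36, 27.4 and 51.1 TPM in KO replicates 1 to 4. The lowest values were those of WT replicate 1 and KO replicate 2, and the highest those of WT replicate 3 and KO replicates 1 and 4. In CPM the highest library exceeded the lowest by 13.8-fold, by 6.39-fold among WT libraries and by 13.8-fold among KO libraries. Ccnb2, a mitotic cyclin, followed the same order of the 8 libraries with 5.47, 14.1, 33.9 and 12.1 TPM in WT and 38.2, 3.00, 17.4 and 36.7 TPM in KO. Top2a, the topoisomerase that untangles chromosomes, ranged from 6.55 to 55.3 TPM.

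Because of this spread the genotype difference was poorly bounded for mitotic genes. The log2 interval was -0.85 to 1.93 for Ube2c, -0.79 to 1.87 for Ccnb2 and -0.92 to 1.596 for Top2a. Of 31 measured cell cycle genes none was called and 17 lay inside 2-fold, or 54.8% against 96.8% of all genes. The median log2 difference of 0.20 was 0.03 without KO replicate 4, 0.06 without WT replicate 1, 0.07 without KO replicate 1 and 0.36 without WT replicate 3. Genes of DNA replication and nucleotide supply in the same list had standard deviations from 0.145 for Mcm4, through 0.228 for Pcna and 0.412 for Mcm7, to 0.843 for Rrm2, a subunit of ribonucleotide reductase. The last of these exceeded the 0.588 of the mitotic kinase gene Cdk1. Mcm4, a subunit of the replicative helicase, had 15.5, 17.4, 19.5 and 16.7 TPM in WT and 19.5, 18.1, 16.3 and 21.3 TPM in KO. Pcna, the sliding clamp, had its highest value in KO replicate 2 (278 TPM), where the mitotic genes were lowest.

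WT replicate 3 and KO replicates 1 and 4 were the highest 3 libraries in 21 of 31 cell cycle genes (67.7%), against 600 of 8162 genes at 10 TPM or more (7.35%), libraries again singled out after their values were seen. The same 3 libraries were the highest in 1 of 8 monocyte markers and 0 of 14 neutrophil markers. By the mean log2 CPM of a list, each gene centred over the untreated libraries, the lists still shared their extremes. KO replicate 4 was highest and KO replicate 2 lowest, at 0.60 and -0.78 for cell cycle genes, 0.60 and -0.68 for monocyte and 0.58 and -0.55 for neutrophil markers. WT replicate 3 differed, at 0.52, 0.06 and -0.36. KO replicate 4 alone was the highest library in 8 of 8 monocyte and 12 of 14 neutrophil markers, against 800 of 8162 genes. KO replicate 2 was the lowest in 7 of 8 and 8 of 14, against 1611 of 8162 genes. Ly6c2, which marks classical monocytes, had 14.2, 23.6, 18.1 and 11.5 TPM in WT and 22.3, 9.62, 19.4 and 29.0 TPM in KO. Their part in the spread was not tested, and in bulk RNA fewer dividing cells and less RNA per dividing cell cannot be told apart.

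**Figure D4:**
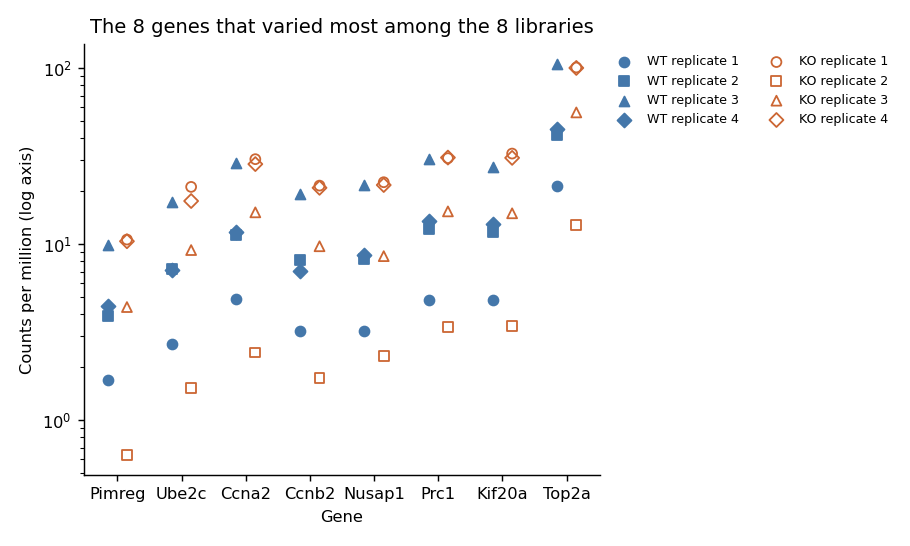
CPM (log axis) of the 8 genes that varied most around their genotype means, one symbol per library. WT replicate 1 and KO replicate 2 are lowest for each of the 8 genes, and WT replicate 3 with KO replicates 1 and 4 are highest.

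Several programmes were bounded tightly, near the share of all genes at such abundance. Over all genes 87.9% lay inside 1.5-fold, and 96.0% to 100% did in the abundance classes from 10 TPM up. None of these programmes had a called gene, against 1 of 11590 over all genes. All 28 lysosomal genes lay inside 1.5-fold, as did all 25 measured pattern recognition genes, all 20 genes of the NF-kB list and all 17 translation factors. The cathepsin gene Ctsb had 8385 ± 165 TPM in WT and 8336 ± 515 in KO, and the receptor gene Tlr2 had 286, 314, 316 and 301 TPM in WT and 261, 281, 336 and 297 TPM in KO. Of 88 ribosomal protein genes, 87 lay inside 1.5-fold.

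Cytokine and chemokine genes were bounded less well. Of 12 measured pro-inflammatory cytokine genes 8 lay inside 2-fold, and of 19 chemokine genes 12 did, against 96.8% of all genes, with none called. The median abundance was 5.16 TPM for the cytokine genes and 15.9 TPM for the chemokine genes, against 22.9 TPM over all genes. The chemokine genes ran from 0.78 TPM for Ppbp to 786 TPM for Ccl9, and 7 of the 19 exceeded 100 TPM. Alternative activation genes lay inside 1.5-fold in 9 of 14 cases, chemoattractant receptors in 11 of 15 and osteoclast markers in 4 of 8, against 87.9% of all genes. Tnf had 68.0, 76.3, 57.3 and 63.5 TPM in WT and 42.9, 78.7, 74.7 and 69.1 TPM in KO, with a log2 interval of -0.50 to 0.44. Il1b had 38.2, 57.8, 70.5 and 47.8 TPM in WT and 68.2, 35.1, 68.4 and 60.9 TPM in KO, and the groups overlapped. Cxcl10, an interferon-responsive chemokine, had 491, 524, 469 and 394 TPM in WT and 258, 327, 324 and 520 TPM in KO, with 3 KO values below the WT range and an interval of -0.86 to 0.01.

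Antigen presentation and cholesterol efflux genes had differences that did not pass the test, against 1 of 11590 over all genes that did. Over all genes 96.8% lay inside 2-fold and 87.9% inside 1.5-fold. All 17 class I presentation genes lay inside 1.5-fold, with a median log2 difference of -0.13 that was -0.06 without KO replicate 1 and -0.20 without KO replicate 4. Of 12 class II genes none was called and 12 lay inside 2-fold. In 1 of the 12 all KO values lay below all WT values, against 1.33% of all genes. Of the 12 genes, 3 had an unadjusted edgeR p below 0.05, against 2.71% of all genes. Their median of -0.13 was -0.04 without KO replicate 2, the lowest library in 10 of the 12, and -0.17 without KO replicate 4. Cd74, the invariant chain, had 2034, 2154, 2244 and 2487 TPM in WT and 2081, 1744, 1904 and 1976 TPM in KO (log2 difference -0.24 ± 0.09). Of 16 genes controlled by the sterol sensor LXR, 16 lay inside 2-fold and 13 inside 1.5-fold. The lowest log2 difference among them was -0.45, and the lowest interval bound was -0.9998. An unadjusted edgeR p below 0.05 was seen in 2 of the 16, against 2.71% of all genes. All KO values lay below all WT values in 1 of the 16, against 1.33%. The median of -0.13 was -0.08 without WT replicate 4. Abcg1, a cholesterol exporter, had 224, 206, 185 and 214 TPM in WT and 169, 216, 185 and 175 TPM in KO. The 22 sterol synthesis genes all lay inside 2-fold with a median of 0.01.

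Genes flanking the disrupted locus were examined in the same fit. Within 2 Mb of Gpr35 on chromosome 1 the RefSeq table lists 102 genes, 59 of them protein-coding, and 29 were measured. None was called, against 1 of 11590 over all genes. All 29 lay inside 2-fold and 27 inside 1.5-fold, against 96.8% and 87.9% of all genes. Their log2 differences ran from -0.27 to 0.17. The nearest measured gene upstream, Capn10, which encodes a calpain protease, had a log2 interval of -0.18 to 0.24 and a mean of 7.03 TPM. Dusp28, a dual-specificity phosphatase gene, had the lowest difference, at 11.8, 12.3, 10.5 and 12.04 TPM in WT and 7.59, 10.6, 8.74 and 12.4 TPM in KO. Its KO value in replicate 4 exceeded every WT value. The most abundant neighbour, the septin gene Sept2, had 243, 245, 254 and 238 TPM in WT and 249, 269, 258 and 238 TPM in KO.

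**Figure D5:**
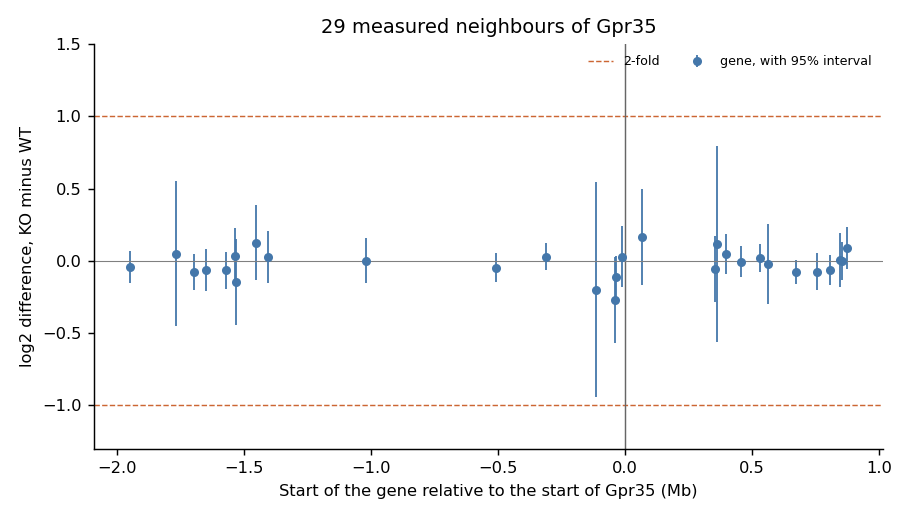
Log2 difference, KO minus WT, with its 95% interval for the 29 measured genes whose start lies within 2 Mb of the start of Gpr35, by position. Each interval lies between the 2-fold lines.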

How the data were processed

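RNA-seq of 8 untreated libraries (4 WT, 4 KO) was analysed from the deposited table of gene counts for 24 libraries. Per the submitters' processing notes, paired 51-base reads were aligned with STAR 2.5.2a to mm10; which program counted reads, with or without strand, and on which gene models, is not given in the sources used here. The authors deposited raw counts with a length per gene, for 11590 genes that had already been filtered on abundance; 9 had no symbol and none of 13 mitochondrial genes was listed. Every count column was matched to a sample.

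Tests used edgeR 4.0.16 (TMM, robust quasi-likelihood F test) with 6 group means over 24 libraries, which left 18 residual degrees of freedom, and Benjamini-Hochberg adjustment over all genes. Intervals and the 2 one-sided equivalence tests used a Wald standard error from the same fit; 3 genes with no count in a group have none. The fitting script was tested on simulated data. TPM follows the deposited length column: against GENCODE M21 exon lengths, available for 11165 genes, the median ratio was 0.72 and 74 of the 100 most abundant genes were shared, so ranks between genes depend on the length used, while genotype differences do not. Short features such as Mir692-2 (218 bases, 2457 TPM) are inflated by length scaling, and 47 genes share all counts with another gene. Exact permutation tests covered 70 arrangements.

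Genes were named by a rule: Gpr35; the 20 most abundant; up to 4 most abundant and 3 smallest p per list; the 8 smallest unadjusted p in each direction at 2 CPM or more; the 8 with the largest spread at 10 TPM or more; the 6 most abundant with an interval beyond 2-fold; and genes within 2 Mb of Gpr35. Ifnb1 and the matrix genes were named after their values were seen, as were other list members given as examples. A few named genes have been left out of the text. Members and lists were chosen with earlier results of these data known. Positions are from RefSeq (GRCm38.p6), and 9210 of the genes matched a RefSeq promoter, the first listed being used. Alternatives were DESeq2 1.42.0, limma 3.58.1 (voom), other scalings and filters, thinning, the 8 libraries alone, a replicate block and leaving out each library. Libraries are named by genotype and replicate number.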

Additional observations from a re-analysis of the deposited data

Results flagged for a closer look

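Of 134 sets of 4 replicates examined, 2 held a library far from the other 3, a smaller share than the about 1 in 20 that chance gives. Endoplasmic reticulum stress and integrated stress response genes held 0.428% of the abundance in WT replicate 1 against 0.378% to 0.386% in the other WT libraries, led by Calr, a chaperone of the endoplasmic reticulum, with 1390 TPM there and 1152 to 1231 TPM in the others. Psd3, an exchange factor for ARF GTPases, reached 56.5 CPM in KO replicate 3 against 48.7 to 49.1 CPM in the other KO libraries.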

How the results depend on the processing

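Gpr35 was the one gene called in each of the 17 alternative settings run, DESeq2 and limma-voom included. The setting without a filter repeats the main fit, because the filter removed no gene, and so is no separate check. The number of genes with an interval inside 2-fold ran from 10705 (at least 50 counts in 4 untreated libraries) to 11224 (DESeq2) over the settings that kept all libraries, apart from 8994 with the widened interval. It ran from 11058 to 11175 when 1 library was left out. These counts do not compare directly, because the settings tested different numbers of genes. The 50-count filter left 10865 genes, the 8 libraries alone and the replicate block 11522, and the other settings 11590. Equivalence within 2-fold held for 10747 (of the 10865) to 11326 (of the 11590) genes over the same settings. It held for 11189 to 11324 genes with 1 library left out. The difference in the share held by the 100 most abundant genes ran from -0.48 to -0.11 percentage points with 1 library left out, with the same sign each time. Single genes were followed with 1 library left out only for Gpr35 and those named for smallest p, largest spread or an interval beyond 2-fold. Of these, 2 changed sign: Saa3 to -0.01222 without KO replicate 4 and Cenpa to -0.01159 without KO replicate 1. They reached at most 0.4966 and 0.5988 with another library left out. Several list medians changed sign too, such as those of sterol synthesis genes (-0.10 to 0.09), chemokines (-0.12 to 0.07) and monocyte markers (-0.04 to 0.40). The cause was not tested. Same-numbered WT and KO libraries did not deviate together (correlations of -0.576 to -0.058, 0 of 4 above 0.1). So few correlations cannot tell whether same-numbered samples were prepared together. With the replicate number as a block, 1 of 11522 genes was called and 11059 lay inside 2-fold. In that fit 11233 were equivalent within 2-fold and the unadjusted count was 219. The limma-voom fit and the widened interval were chosen after seeing the data. Depth differs by genotype, and of the genes with an interval beyond 2-fold 174 were under 1 TPM and 84 between 1 and 3 TPM, and genes removed before deposition were not analysed here.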

Other observations

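KO replicate 2 was low in immature myeloid markers in treated cultures as well. The summed neutrophil and granulocyte precursor markers of KO replicates 1 to 4 were 0.218%, 0.122%, 0.171% and 0.242% of the abundance in untreated cells, 0.195%, 0.0967%, 0.170% and 0.190% with LPA and 0.163%, 0.0722%, 0.155% and 0.182% with lipopolysaccharide. KO replicate 2 was the lowest in each of the 3 conditions. In WT, replicate 4 was the lowest in each, with 0.124%, 0.103% and 0.0899%. Monocyte markers, Chil3 the most abundant among them, were likewise lowest in KO replicate 2 in each condition, at 0.0112%, 0.00891% and 0.00796%.

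The interferon-stimulated genes did not keep their untreated order. KO replicates 1 to 4 held 0.481%, 0.757%, 0.538% and 0.820% in untreated cells but 0.597%, 0.574%, 0.476% and 0.552% with LPA, so that replicate 1, the lowest without treatment, was the highest of the 4 with LPA. With lipopolysaccharide the values were 2.60%, 2.76%, 2.42% and 2.55%. WT libraries held 0.737% to 0.884% in untreated cells and 1.00% to 1.31% with LPA. The labels do not say that a number marks a shared culture.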
